A study of Mus musculus with 16 samples.

Results

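The transcripts of 8 complement genes of stroma were examined in bulk RNA-seq of stromal cells and sympathetic ganglia that had been cocultured across inserts. The members were the protein-coding rows whose gene name was C3, C4b, Cfb, C1ra, C1s1, Serping1, Cd55 or Cd59a, and all 8 were present among the 56941 genes (21684 of them protein-coding) of each of the 2 deposited tables. They were chosen by name with the expression values of both tables, and the differences between groups in them, already known, so the members' levels and differences are given as a description and do not count as independent evidence.

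The stromal cells were mPSC1, a single immortalized line of murine pancreatic stellate cells, and they were sequenced after culture alone (PSC, n = 3 libraries) or with explants of superior cervical ganglia (PSC+SCG, n = 3). The explants were sequenced after culture alone (SCG, n = 3), with NIH 3T3 cells, an immortalized mouse embryonic fibroblast line (SCG+MEF, n = 3), or with mPSC1 cells (SCG+PSC, n = 4). Ganglia came from wild-type C57BL/6J pups of postnatal days 1 to 4, and 8 to 13 explants were grown per well in medium with nerve growth factor. In the cocultures the explants lay beneath 10000 cells on an insert for about 70 hours, whereas explants cultured alone had no cells above them. The labels do not say which pups or wells gave which library, so p-values measure the spread between these libraries. The mPSC1 and the explant tables had been normalized separately, and groups were compared only within a table.

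The 14 libraries whose reads could be recovered held between 31900689 and 41632381 reads on genes. All 6 fibroblast markers and all 5 stellate cell markers were above 0 in every mPSC1 library, although the stellate marker Des (65.5 to 136 normalized counts) and the fibroblast marker Lum (1.06 to 33) were low. Of the markers of other cell types, the macrophage genes Adgre1 and Ptprc and the neuronal gene Slc18a2 were listed at 0 in all 6 of them, but the macrophage genes Cd68 (127 to 217) and Csf1r (51.1 to 179) and the neuronal gene Hand2 (554 to 996) were present in every one. The explants expressed all 7 sympathetic neuron markers, and also all 8 macrophage, 6 glial, 6 fibroblast and 6 endothelial markers, so an explant value sums over several cell types. All 5 stellate cell markers were present too, at a sum of 156828 to 231954 in explants cultured alone. That list therefore does not set stellate cells apart. In such bulk samples fewer cells of a type and less RNA per cell cannot be told apart.

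Complement is a cascade of plasma and tissue proteins in which proteases cleave one another and deposit fragments on surfaces. The proteases C1r and C1s, bound to the recognition protein C1q, cleave C4 and C2, the resulting convertase cleaves C3, and factor B amplifies C3 cleavage through the alternative pathway. Host cells hold the cascade back with the C1 inhibitor encoded by Serping1, with CD55, which speeds the decay of convertases, and with CD59, which blocks assembly of the membrane attack complex. Hepatocytes make most plasma complement, and fibroblasts and macrophages make it locally.

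The genes lie in a few clusters of the mouse genome (GRCm39, GENCODE M39 annotation). C3 (ENSMUSG00000024164) is at chr17:57510964-57535155 on the minus strand. C4b (ENSMUSG00000073418, chr17:34947354-34962912, minus) and Cfb (ENSMUSG00000090231, chr17:35074852-35081559, minus) are 112 kb apart on the same chromosome. C1ra (ENSMUSG00000055172, chr6:124489364-124500402, plus) and C1s1 (ENSMUSG00000038521, chr6:124507297-124559389, minus) are separated by 6.89 kb. Serping1 (ENSMUSG00000023224, chr2:84595705-84620873, minus), Cd55 (ENSMUSG00000026399, chr1:130366469-130390926, minus) and Cd59a (ENSMUSG00000032679, chr2:103926132-103947029, plus) stand apart from the other members.

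The 250 bases before the start of the canonical transcript are shown for C3, C4b, C1ra and C1s1, 4 of the members that varied together across the mPSC1 libraries. They are read 5′ to 3′ on the strand of the gene from GRCm39, in lower case with the motif match in capitals. Serping1 and Cd55 also varied with these 4, are not shown, and held neither of the motifs marked here. The matches are C/EBP (TTGCNNAA, either strand) in C3, C1ra and C1s1 and kappaB, searched under its usual degenerate consensus, in C4b.
C3, chr17:57535156-57535405: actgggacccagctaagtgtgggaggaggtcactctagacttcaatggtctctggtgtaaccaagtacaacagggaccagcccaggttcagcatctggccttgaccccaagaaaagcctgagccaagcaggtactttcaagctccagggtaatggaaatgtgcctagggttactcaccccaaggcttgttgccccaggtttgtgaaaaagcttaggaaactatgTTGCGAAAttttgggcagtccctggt
C4b, chr17:34962913-34963162: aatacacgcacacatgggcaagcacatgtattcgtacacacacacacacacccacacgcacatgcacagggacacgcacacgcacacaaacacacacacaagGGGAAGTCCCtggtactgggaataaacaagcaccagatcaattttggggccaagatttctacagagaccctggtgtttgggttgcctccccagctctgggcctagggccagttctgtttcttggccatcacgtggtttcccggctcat
C1ra, chr6:124489114-124489363: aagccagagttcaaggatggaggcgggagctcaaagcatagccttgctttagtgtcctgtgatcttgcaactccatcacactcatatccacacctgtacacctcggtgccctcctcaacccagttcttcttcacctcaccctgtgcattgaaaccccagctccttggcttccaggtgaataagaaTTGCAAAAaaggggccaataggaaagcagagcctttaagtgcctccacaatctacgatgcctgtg
C1s1, chr6:124519319-124519568: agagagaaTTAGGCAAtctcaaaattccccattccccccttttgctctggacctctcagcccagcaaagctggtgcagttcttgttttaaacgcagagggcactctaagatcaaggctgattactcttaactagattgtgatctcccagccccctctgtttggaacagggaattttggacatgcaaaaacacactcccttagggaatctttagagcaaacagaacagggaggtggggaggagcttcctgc

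The C/EBP letters lay at bases -26 to -19 of C3, -65 to -58 of C1ra and, on the opposite strand, -242 to -235 of C1s1, counted back from that start. The start of the canonical C1s1 transcript lies 40.1 kb inside the span given above for the gene, and that of Serping1 15.1 kb inside, because other annotated transcripts begin further upstream, whose promoters were not searched. They occurred in 9.34% of the 21757 protein-coding promoters of the same length. The kappaB consensus was at -148 to -139 of C4b, was present at 2 places in the promoter of Cfb and occurred in 7.63% of promoters. Among the other members, Serping1 held the CRE core (TGACG, in 18% of promoters) and Cd59a the ISRE (in 3.32%). The promoter of Cd55 held none of these, nor did any member hold the GAS (TTCNNNGAA, in 7.7%) or the full CRE (TGACGTCA, in 1.7%). A match describes letters only, and the libraries do not measure binding.

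Several members share sequence with a neighbouring copy, and the authors' counting dropped reads that fit more than one place. C4b shared 34.8% of its 50-base words with C4a, C1ra 48% with C1rb, C1s1 24.5% with C1s2, Cd59a 21.7% with Cd59b and Cd55 10.8% with Cd55b, whereas C3 and Serping1 shared none with another gene. Values of the sharing genes may therefore count only a part of the transcript, and the loss of reads was not measured. In Cfb, 67.1% of exon bases also belong to the overlapping gene Gm20547 on the same strand, which was listed at 0 in every library. Reads that fall in both genes are ambiguous and would not be counted, so the low values of Cfb may not measure its full level.

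In mPSC1 cells C3, the central component of the cascade, ranged widely between libraries. It reached 8855, 3133 and 1064 normalized counts in PSC replicates 1, 2 and 3, and 12378, 9119 and 1431 in PSC+SCG replicates 1, 2 and 3. Replicate 3 was the lowest library of both groups, the groups overlapped, and each PSC+SCG library was above the PSC library of its own number. The log2 fold change was 0.82 (SE 0.90, 95% interval -1.24 to 2.88), with an adjusted p of 0.9999 in limma over all genes. Leaving out PSC replicate 3 gave 0.048, and leaving out PSC+SCG replicate 3 gave 1.78.

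C4b, which supplies the second subunit of the classical C3 convertase, varied more. PSC libraries 1, 2 and 3 held 947, 603 and 52.0 normalized counts and PSC+SCG libraries 1209, 1561 and 66.0. Both replicates 3 were far below the other libraries, and the groups overlapped. The log2 fold change of C4b was 0.69 (SE 1.34) and its adjusted p 0.9999. Leaving out PSC replicate 3 turned it to -0.59, and leaving out PSC+SCG replicate 3 raised it to 2.14. Cfb, the protease of the alternative pathway convertase, stayed between 0 and 9.87 normalized counts in the 6 libraries (0 to 10 reads in the 5 with recovered reads), too few to read a difference.

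The proteases that start the classical pathway were well above the membrane inhibitors in every mPSC1 library. C1ra held 4045, 3531 and 1638 normalized counts in PSC and 4431, 5586 and 1594 in PSC+SCG. C1s1 held 9196, 6640 and 3107 in PSC and 11285, 11623 and 3322 in PSC+SCG. Again the lowest library of each group was replicate 3, and the groups overlapped for both genes. Log2 fold changes were 0.25 (SE 0.48) for C1ra and 0.40 (SE 0.53) for C1s1.

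Of the inhibitors, Serping1 held 1250, 976 and 454 normalized counts in PSC and 1425, 1918 and 677 in PSC+SCG. Its 3 same-numbered pairs were all higher in coculture, by 1.14, 1.96 and 1.49 times, and the groups overlapped (log2 fold change 0.58, SE 0.44, and 0.15 without PSC replicate 3). Cd55 was at 134, 73.8 and 59.7 in PSC and 137, 129 and 70.2 in PSC+SCG (log2 fold change 0.35, SE 0.39, between 0.11 without PSC replicate 3 and 0.69 without PSC replicate 1). Cd59a was at 139, 109 and 165 in PSC and 121, 110 and 183 in PSC+SCG. It was the only member with more than 50 normalized counts whose highest library in both groups was replicate 3, and its difference between groups was near 0 (log2 fold change -0.01, SE 0.28).

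**Figure D1:**
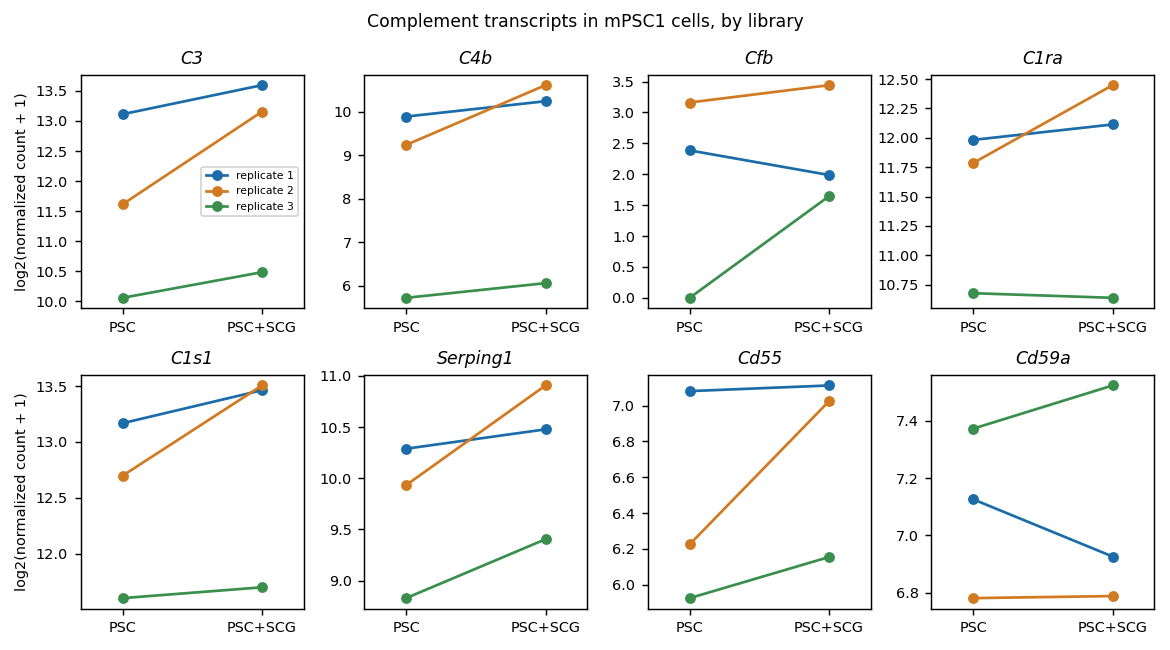
Log2(normalized count + 1) of each member in PSC and PSC+SCG libraries, 1 panel a gene with its own axis, 1 point a library, and a line joining libraries of the same replicate number. Replicate 3 is lowest in both groups for C3, C4b, C1ra, C1s1, Serping1 and Cd55 and highest for Cd59a.

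A gene was taken as past the threshold when its adjusted p did not exceed 0.05 and its log2 fold change was 0.5 or more in either direction. With libraries treated as independent, 0 of the 8 members were past it between PSC+SCG and PSC in limma. No gene was among all tested (0 of 21273, or 0%), 408 genes (1.92%) and 0 members had an unadjusted p under 0.05, and edgeR on the 5 libraries with recovered reads called 0 as well, with 242 at an unadjusted p under 0.05. None of the members separated the groups without overlap, against 5.6% of genes tested. An exact permutation test of 3 against 3 libraries cannot give a two-sided p below 0.1.

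The same-numbered libraries deviated together, and a fit with the replicate number as a block compares each PSC+SCG library with its PSC partner. In that fit C3 (adjusted p = 0.00739, SE 0.15) and Serping1 (adjusted p = 0.0480, SE 0.13) were past the threshold in limma, 2 of 8 members where 0.461% of all genes were, and 0.315% in the higher direction. Their fold changes stayed as given above, since the block alters the error. C4b (adjusted p = 0.0771), C1s1 (adjusted p = 0.143) and C1ra (adjusted p = 0.564) were not past it in the blocked limma fit. C3, C4b, C1s1, Serping1 and Cd55 were higher in all 3 pairs, as were 12.3% of genes tested.

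The pairs contributed unequally. C3 was 1.40, 2.91 and 1.34 times higher in PSC+SCG than in its PSC partner in pairs 1, 2 and 3. C4b was 1.28, 2.59 and 1.27 times and C1s1 1.23, 1.75 and 1.07 times higher. Pair 2 therefore held the largest ratio for each of these genes. Without pair 2 the blocked limma fit gave C3 a log2 fold change of 0.45 (adjusted p = 0.263) and Serping1 0.38 (adjusted p = 0.762), and 0 members were past the threshold, against 0.367% of genes. Without pair 1, 0 members were past it (0.194% of genes), with C3 at 0.98 (adjusted p = 0.133) and Serping1 at 0.77 (adjusted p = 0.0527). With each replicate 3 in a block of its own, 4 members were past it in limma (2.3% of genes). A library alone in its block adds nothing to the fold change, so that fit rests on replicates 1 and 2. The fit without pair 3 rests on the same libraries and is not a second line of support. Without pair 3, 4 members were past it in limma (2.28% of genes), with log2 fold changes of 1.01 for C3, 0.86 for C4b, 0.58 for Serping1 and 0.55 for C1s1.

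**Figure D2:**
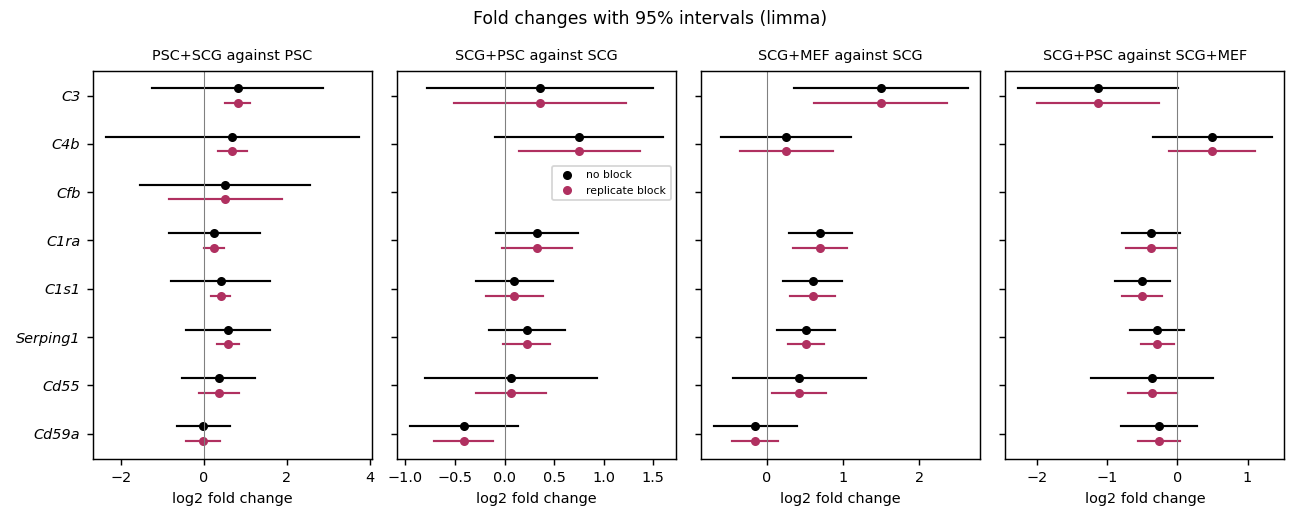
Log2 fold change of each member with its 95% interval in limma, for the 4 comparisons, without a block (black) and with the replicate number as a block (red). In PSC+SCG against PSC the interval of C3 runs from -1.24 to 2.88 without the block and from 0.52 to 1.12 with it, and Cfb was not tested in the explant libraries.

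The spread between replicates of mPSC1 cells was wide for these genes. The within-group SD on the log2 scale was 2.39 for C4b, 1.61 for C3, 0.92 for C1s1, 0.84 for C1ra, 0.77 for Serping1, 0.57 for Cd55 and 0.35 for Cd59a, against a median of 0.19 over the 11080 genes of mean at least 100. Only 0.00903% of these genes had a larger SD than C4b and 0.153% a larger one than C3. In PSC the mean of replicates 1 and 2 was 5.63 times replicate 3 for C3, 14.9 times for C4b, 2.31 times for C1ra, 2.55 times for C1s1 and 2.45 times for Serping1. In PSC+SCG these ratios were 7.51, 21.0, 3.14, 3.45 and 2.47. Those 5 members lay at least 1 log2 unit below both other replicates in both replicates 3, as did 1.75% of the 13036 genes with a mean of at least 50.

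Over the 6 libraries the members other than Cd59a and Cfb rose and fell together, with Pearson's r between 0.86 and 0.99 across 15 pairs of genes, whereas Cd59a ran the other way (r from -0.89 to -0.55). These are correlations over libraries that share a cell line, a table and the same replicates 3, and they carry no test. The summed fibroblast markers were 443982 normalized counts in PSC replicate 3 and 622352 to 649154 in the other PSC libraries, and 383049 against 585599 to 665155 in PSC+SCG. The summed stellate cell markers were higher in the replicates 3, at 149251 against 115200 to 118270 in PSC and 186408 against 100230 to 112486 in PSC+SCG. The part of these shifts in the complement values was not tested.

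**Figure D3:**
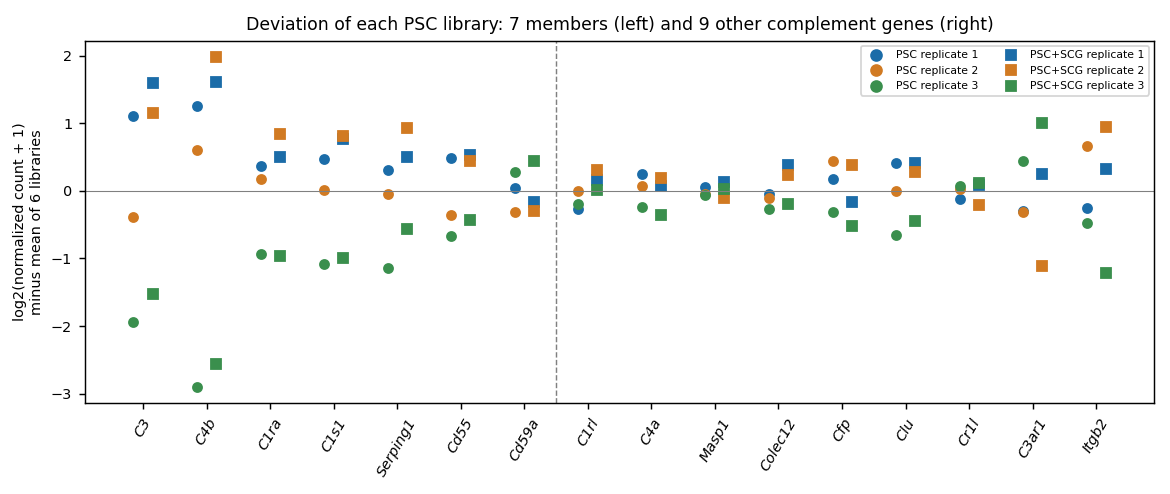
Deviation of each mPSC1 library from the mean of the 6 libraries, in log2(normalized count + 1), for the 7 members and the 9 other complement genes with a mean of at least 50 normalized counts. Circles are PSC and squares PSC+SCG, coloured by replicate number, and C4b reaches from -2.90 to 1.98 while Masp1 stays within 0.14 of its mean.

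The spread was uneven over the other complement genes. Of a list of 45 (initiators, terminal components, regulators and receptors), 9 had a mean of at least 50 normalized counts in mPSC1 cells. Masp1, which encodes a protease of the lectin pathway, differed by at most 1.18 times across the 6 libraries, Cr1l, a membrane regulator, by 1.25 times, C1rl by 1.49 times and C4a by 1.53 times, where C4b differed by 30.0 times and C3 by 11.6 times. C3ar1 and Itgb2 differed by 4.39 and 4.51 times, above the 3.51 times of C1ra. C4a lies near C4b on the same chromosome, with 65.2 kb between them. The C1q chains C1qb and C1qc were listed at 0 in all 6 libraries and C1qa at no more than 0.963 normalized counts. Of the list, 23 genes were tested, with a median log2 fold change of 0.04 against -0.01 over all genes, and the median of the 8 members was 0.45. None of the 23 was past the threshold, with or without the block. C1rl, a C1r-like protease, was the single gene of the list whose groups did not overlap, at 853 to 1022 in PSC and 1034 to 1269 in PSC+SCG, and was picked out after its values were seen. That is 1 of 23 genes, beside the 5.6% of all genes without overlap.

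The genes whose log2 values followed C3 most closely over the 6 mPSC1 libraries, among 11664 protein-coding genes, were Dlg2 (r = 0.998), Igf1 (0.997), Sned1 (0.995), Gng7 (0.995) and Thbs3 (0.995). Sned1 held 3166, 1237 and 450 normalized counts in PSC and 4144, 4111 and 578 in PSC+SCG. The nearest to C1s1 were Cd1d1 (r = 0.996), Usp11 (0.995), Zfp949 (0.995), Rnf169 (0.994) and Pcdhgc5 (0.993). With 6 libraries, 2 of them low together, such values are descriptive.

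In the SCG explants C3 was a minor transcript. It stood at 38.5, 39 and 47.1 normalized counts in SCG, at 321, 69.2 and 74.0 in SCG+MEF, and at 64.3, 39.5, 59.8 and 119 in SCG+PSC replicates 1 to 4. All SCG+MEF libraries were above all SCG libraries, with SCG+MEF replicate 1 standing far above the rest, and SCG+PSC overlapped with SCG. The log2 fold change was 1.49 (SE 0.51) for SCG+MEF against SCG, and it fell to 0.78 without SCG+MEF replicate 1. For SCG+PSC against SCG it was 0.36 (SE 0.51).

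C4b behaved differently. SCG libraries held 528, 454 and 221 normalized counts, SCG+MEF 712, 483 and 264, and SCG+PSC 549, 606, 766 and 726. Every SCG+PSC library, replicate 4 included, was above every SCG library, and SCG+MEF overlapped with both groups. Of the 7 members tested in SCG+PSC against SCG this was the 1 without overlap in replicates 1 to 3, where 4.24% of genes were higher without overlap. The log2 fold change was 0.75 (SE 0.38, adjusted p = 1 in limma) and most of it came from pair 3, at 3.46 times against 1.04 and 1.34 times in pairs 1 and 2. Without SCG replicate 3 it was 0.37. Cfb held 0 to 2 reads in each of the 9 explant libraries with recovered reads, and no fold is given.

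C1ra and C1s1 were higher beside the fibroblast line. C1ra held 159, 232 and 185 normalized counts in SCG, 299, 273 and 364 in SCG+MEF and 232, 253, 231 and 187 in SCG+PSC. C1s1 held 891, 1060 and 1120 in SCG, 1472, 1286 and 1955 in SCG+MEF and 1267, 946, 1084 and 1196 in SCG+PSC. In both genes all SCG+MEF libraries were above all libraries of the other groups. The log2 fold changes of SCG+MEF against SCG were 0.70 (SE 0.19) for C1ra and 0.60 (SE 0.18) for C1s1.

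Serping1 was the most abundant member in the explants. It held 4828, 5274 and 3239 normalized counts in SCG, 6429, 6244 and 5991 in SCG+MEF and 5717, 5087, 4521 and 5165 in SCG+PSC. SCG+MEF was again above both other groups in every library (log2 fold change against SCG 0.51, SE 0.17, and 0.30 without SCG replicate 3). The groups overlapped for both membrane inhibitors. Cd55 was at 273, 161 and 380 in SCG, 277, 295 and 499 in SCG+MEF and 244, 177, 444 and 389 in SCG+PSC, and replicate 3 was highest in each group. Cd59a was at 1385, 1061 and 1720 in SCG, 1244, 883 and 1697 in SCG+MEF and 1213, 902, 979 and 1003 in SCG+PSC, the one member with a negative log2 fold change in both cocultures against SCG (-0.41, SE 0.24, with mPSC1 and -0.15, SE 0.24, with NIH 3T3).

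**Figure D4:**
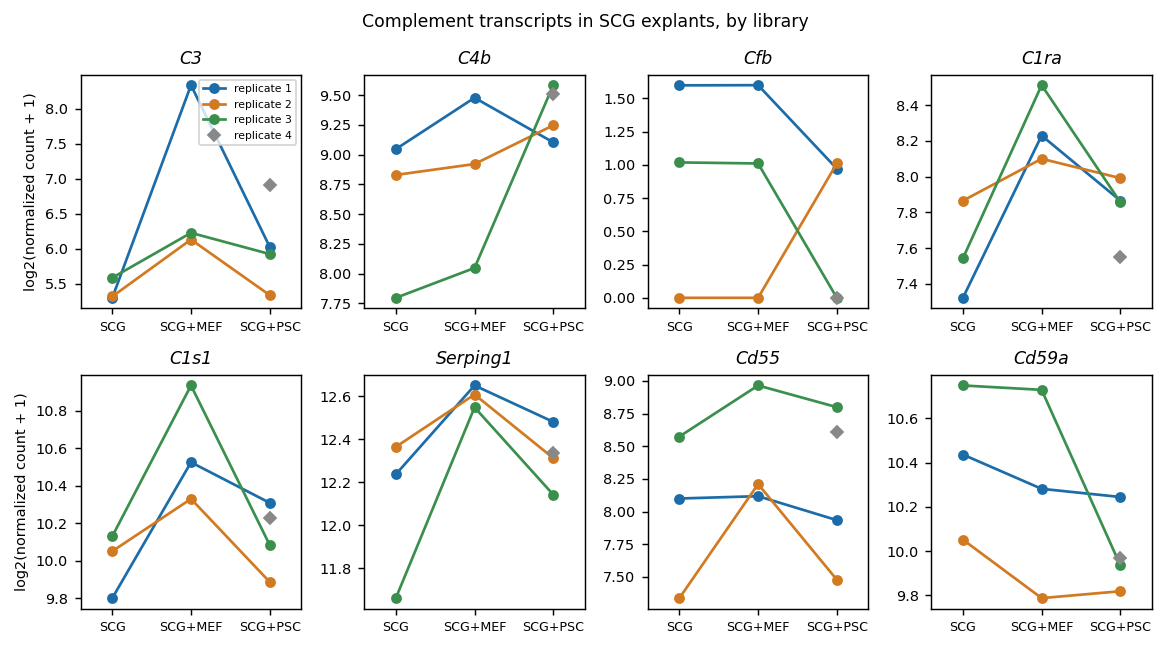
Log2(normalized count + 1) of each member in the explant libraries, 1 panel a gene with its own axis, 1 point a library, lines joining replicates 1 to 3 and a diamond for SCG+PSC replicate 4. C3, C1ra, C1s1 and Serping1 are higher in each SCG+MEF library than in any SCG library, and C4b is higher in each SCG+PSC library than in any SCG library.

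None of the 7 members tested was past the threshold in any of the 3 explant comparisons, with or without the block, in limma. In SCG+PSC against SCG, 0.0128% of the 23491 genes were past it without the block and 1.33% with it, and 0 members had an unadjusted p under 0.05 without the block (4.01% of genes did). In SCG+MEF against SCG the shares were 0.0128% and 0.162%, and 4 members (C3, C1ra, C1s1 and Serping1) had an unadjusted p under 0.05 in limma, all higher, as did 1.49% of genes. The same 4 did not overlap between groups, where 2.99% of genes were higher without overlap. Their adjusted p was 1 without the block and lay between 0.121 for Serping1 and 0.285 for C3 with it. EdgeR and DESeq2 without a block also called no member in any of the 3. Over all genes edgeR called 0.0127%, 0.0127% and 0% and DESeq2 0.237%, 0.0929% and 0.076% in SCG+PSC against SCG, in SCG+MEF against SCG and between the cocultures, shares at which 0 of 7 says little. In SCG+MEF against SCG each tool gave the same 4 members an unadjusted p under 0.05.

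The direct comparison of the cocultures gave C3 a log2 fold change of -1.13 (SE 0.51) for SCG+PSC against SCG+MEF, C1s1 -0.50 (SE 0.18), C1ra -0.38 (SE 0.19), Serping1 -0.29 (SE 0.17) and C4b 0.50 (SE 0.38). Without SCG+MEF replicate 1 the value of C3 was -0.42, and without SCG+MEF replicate 3 that of C4b was 0.11. The first 4 were lower in each of SCG+PSC replicates 1 to 3 than in any SCG+MEF library, where 3.47% of genes were lower without overlap, and SCG+PSC replicate 4 (C3 at 119) lay inside the SCG+MEF range for C3. No gene was past the threshold without the block in limma (0 of 23491, or 0%; 755, or 3.21%, at an unadjusted p under 0.05) or edgeR (0), DESeq2 called 18 (0.076%), and 0.788% were past it with the block in limma, with limma adjusted p of 0.117 for C1s1 and 0.267 for C3. C1s1 was the 1 member with an unadjusted p under 0.05 without the block, lower as in 1.26% of genes. The comparisons with SCG share the same 3 SCG libraries, and their values stand side by side only.

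Some markers of the cell types in the explants differed between groups and others did not. The 6 fibroblast markers summed to 183932 to 363452 normalized counts in SCG, 264129 to 381583 in SCG+MEF and 262920 to 365930 in SCG+PSC. Of the 6, Lum (log2 fold change 1.29, adjusted p = 0.00168) and Dcn (0.74, adjusted p = 0.0371) were past the threshold in SCG+MEF against SCG in the blocked limma fit, and Lum (0.65, adjusted p = 0.0302) in SCG+PSC against SCG. The 6 endothelial markers summed to 1205 to 1955 in SCG, 1904 to 2174 in SCG+MEF and 1951 to 2873 in SCG+PSC, and none was past it. The 8 macrophage markers summed to 3557 to 5013, 4020 to 5117 and 3910 to 4697. One of them, Mrc1, was past it in SCG+PSC against SCG with the block (1.15, adjusted p = 0.00999). Between the cocultures, Lum was lower in SCG+PSC in the blocked limma fit (-0.64, adjusted p = 0.0443), the 1 fibroblast marker past the threshold. There the log2 fold changes of the 6 fibroblast markers ran from -0.64 to 0.16, with a median of -0.12. Those of the 6 endothelial markers ran from 0.058 to 0.79. Against SCG, the log2 fold changes of the 6 fibroblast markers ran from 0.18 to 1.29 in SCG+MEF and from 0.23 to 0.65 in SCG+PSC. Those of the 6 endothelial markers ran from 0.42 to 0.76 in SCG+MEF and from 0.49 to 1.55 in SCG+PSC. Of the 6 glial markers, Fabp7 was past it with the block, lower in SCG+MEF than in SCG (-0.50, adjusted p = 0.0338) and higher in SCG+PSC than in SCG+MEF (0.56, adjusted p = 0.0219). Their part in the member values was not tested.

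Per exon length, the order of the members differed between the 2 tables. The length joins the exons of the annotated transcripts of a gene and makes no allowance for reads that may have been dropped in sharing genes. It is 6284 bases for Cd59a, whose canonical transcript has 1705, and 3326 for C1s1, whose canonical transcript has 2916. The order of Cd59a and C1s1 in SCG therefore depends on the length used. In PSC, C1s1 had the highest mean, at 1898 ± 919 normalized counts per kb (SD, n = 3), followed by C1ra (1030 ± 425), C3 (841 ± 780), Serping1 (328 ± 149), C4b (94.6 ± 80.0), Cd59a (21.9 ± 4.44) and Cd55 (21.1 ± 9.40). The ranges of the 3 libraries overlapped between every pair of neighbours in this order. In SCG, Serping1 led at 1633 ± 393 per kb, followed by C1s1 (308 ± 35.7), Cd59a (221 ± 52.5), C4b (71.0 ± 28.3), C1ra (64.5 ± 12.4), Cd55 (64.2 ± 26.0) and C3 (8.03 ± 0.938). There the ranges of C1s1 and Cd59a overlapped, as did those of C4b, C1ra and Cd55, while Serping1 and C3 stood clear of their neighbours. Cfb was lowest in both tables. C3 lay between the 68.9th and the 96.9th percentile of protein-coding genes in PSC libraries and between the 39.6th and 40.9th in SCG libraries.

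**Figure D5:**
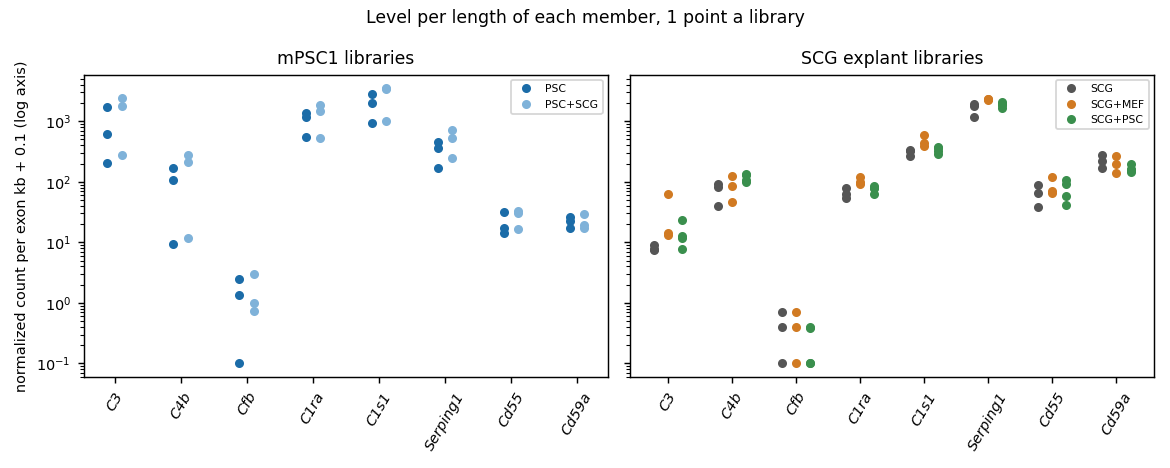
Level of each member per kb of exon, as normalized count per kb + 0.1 on a log axis, in mPSC1 libraries (left) and SCG explant libraries (right), 1 point a library. C1s1, C1ra and C3 lead in mPSC1 cells and Serping1 in the explants, and the 2 panels were normalized separately.

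In the explants, 20 of the 45 other complement genes had a mean of at least 50 normalized counts, among them C1qa, C1qb and C1qc with group means from 1216 to 1979. None of the 35 tested was past the threshold without the block. With it, Itgb2, the integrin chain shared by the receptors CR3 and CR4, was the 1 gene past it in SCG+PSC against SCG (log2 fold change 0.52, SE 0.11, adjusted p = 0.0460 in limma), 1 of 35 beside 1.33% of all genes. With the block and SCG+PSC replicate 3 set apart, Itgb2 was not past the threshold. Itgb2 held 450, 416 and 320 normalized counts in SCG and 607, 552, 527 and 580 in SCG+PSC, higher without overlap. Of the 35 tested, Fcna, C5ar1 and Itgam were also higher without overlap over replicates 1 to 3. Over those replicates 4.24% of all genes were higher without overlap. The medians of the list's log2 fold changes were 0.06, 0.10 and 0.02 for SCG+PSC and for SCG+MEF, each against SCG, and between the cocultures, beside 0.22, 0.51 and -0.36 for the 7 members tested. Over all genes the medians were 0.00, 0.02 and -0.01.

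Across the 10 explant libraries the members varied less in common than in mPSC1 cells, with r between -0.32 and 0.78 over the 15 pairs without Cd59a and Cfb, the highest for C1ra with C1s1. Genes nearest to C3, among 12848 protein-coding genes, were Csmd1 (r = 0.898), Fmnl2 (0.847), Zfp619 (0.846), Htt (0.834) and Pllp (0.800). Csmd1, itself a large membrane protein that restrains complement, held 2565 normalized counts in SCG+MEF replicate 1 and 1543 to 2110 in the other libraries. Igfbp4 followed C1s1 most closely (r = 0.975), then Abca8a (0.954), Itm2a (0.948), Tbc1d32 (0.939) and Sgcb (0.938). These correlations pool 3 groups and carry no test.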

How the data were processed

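RNA was sequenced in bulk (TruSeq stranded mRNA) from 6 mPSC1 and 10 SCG explant libraries, 16 in all. The authors aligned reads to GRCm39 with STAR 2.7.10b, counted those on the sense strand of GENCODE genes, leaving out multimapped and ambiguous reads, and divided each library by its DESeq2 1.38.3 size factor (R 4.2.2), per the labels and the study's methods. The deposited values are a signal, normalized counts per gene, 1 table for mPSC1 and 1 for explants. Whole reads could be recovered for 14 libraries (all values within 0.01 of a whole number), which gave the depths; PSC+SCG replicate 1 and SCG+PSC replicate 4 gave none.

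Log2(normalized count + 1) was fitted with limma 3.58.1 (R 4.3.3, trend), over genes summing to at least 10, with Benjamini-Hochberg adjustment over all genes. The explant fit held 9 libraries, and values of SCG+PSC replicate 4 are printed beside it. A gene was past the threshold when its adjusted p did not exceed 0.05 and its log2 fold change was 0.5 or more in size. The threshold and the low-count filter followed the study, whose covariate for experimental batch was not used here because no source used here ties a library to a batch. Groups and replicate numbers came from the titles. Deviations from group means of same-numbered libraries correlated at r = 0.25 to 0.70 across genes in all 12 pairs. Those of differently numbered libraries correlated at r = -0.53 to 0.24, so the ranges nearly met. The 0.24 was in PSC+SCG against PSC, where same-numbered libraries gave 0.47 to 0.70. The 0.25 was between the cocultures. The replicate number was therefore fitted as a block as an alternative, and the pairing rests on these numbers and correlations. Other alternatives were pseudocounts of 0.5 and 8, other filters, quantile normalization, edgeR 4.0.16 and DESeq2 1.42.0 on recovered reads, and leaving out libraries. The limma, edgeR and DESeq2 fits were checked on simulated data whose spread between libraries was smaller than that of C3 and C4b in mPSC1 cells. The check does not cover so wide a spread.

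Named genes were the members, their near-identical copies, other complement genes past the threshold in either fit, and the 5 protein-coding genes most like C3 and C1s1. Members, gene lists and markers were chosen with earlier results of these data known, and tests on them are not independent evidence. Of the lists, 1 complement gene and 1 neuronal marker are not reported here. Positions, exon lengths and the 250 bases before each start came from GRCm39 with GENCODE M39, a later release than the authors'; near-identical copies were found as shared words of 50 bases.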

Additional observations from a re-analysis of the deposited data

Results flagged for a closer look

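In SCG+PSC, the group of 4 libraries, 35 complement genes with a mean of at least 10 normalized counts were examined for 1 library set apart from the other 3, which chance does in about 1 of 20 groups. None of the members met this. C6, a component of the membrane attack complex, stood at 26.9 normalized counts in replicate 1 and 7.06 to 8.55 in the others (gap over range 0.925). C1qc, a chain of C1q, stood at 1956 in replicate 1 and 1493 to 1555 in the others (0.865). C1rl stood at 58.8 in replicate 3 and 37.3 to 40.5 in the others (0.849). The same-numbered libraries of other groups were often high as well. C6 in SCG+PSC replicate 1 was 1.02 times its value in SCG+MEF replicate 1 and 2.41 times that in SCG replicate 1. For C1qc, replicate 1 was also the highest in SCG (2323) and SCG+MEF (2276). For C1rl, replicate 3 was also the highest in SCG (48.2) and SCG+MEF (53.7).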

How the results depend on the processing

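The replicate block moved the calls most. In PSC+SCG against PSC the number of members past the threshold went from 0 to 2 with the replicate block. It was 4 when the replicates 3 were also set apart and 4 with the block and without pair 3. Both of these fits rest on replicates 1 and 2. The share of all genes past the threshold went from 0% to 0.461%, 2.3% and 2.28%. In SCG+PSC against SCG the number of other complement genes past it went from 0 to 1 with the replicate block, in limma and in edgeR. In no other comparison did the block change a call of a member. The fits that left out a pair or used the 5 recovered mPSC1 libraries were chosen after seeing the data.

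Directions turned for small differences. In PSC+SCG against PSC, Cfb was at -0.059 on the log2 scale with the replicates 3 apart or left out, with or without the block. Cd59a was at 0.033 with quantile normalization, 0.079 with the block and without pair 1, and 0.082 in edgeR on 5 libraries. With the block and SCG+PSC replicate 3 alone set apart, Cd55 in SCG+PSC against SCG and C4b between the cocultures were at -0.021 and -0.023. The cause was not tested.

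Leaving out 1 library in turn gave PSC+SCG against PSC log2 fold changes of -0.59 to 2.14 for C4b, -0.42 to 1.17 for Cfb, -0.15 to 0.80 for C1ra, -0.044 to 0.99 for C1s1 and -0.24 to 0.13 for Cd59a, with PSC replicate 3 (all 5), PSC+SCG replicate 2 (C4b, Cfb, C1ra and Cd59a) and both replicates 1 (Cd59a) turning the sign. C3 kept its sign over 0.048 to 1.78, Serping1 over 0.15 to 1.01 and Cd55 over 0.11 to 0.69. In SCG+PSC against SCG the ranges were -0.0087 to 0.20 for C1s1 (without SCG+PSC replicate 1) and -0.30 to 0.36 for Cd55 (without SCG replicate 2 or SCG+PSC replicate 3), and in SCG+MEF against SCG -0.12 to 0.64 for C4b (without SCG replicate 3 or SCG+MEF replicate 1) and -0.38 to 0.093 for Cd59a (without SCG replicate 3 or SCG+MEF replicate 2). Ranges that kept their sign but moved by over 1.5 times were, against SCG, 0.23 to 0.57 for C3, 0.37 to 0.998 for C4b, 0.20 to 0.47 for C1ra, 0.011 to 0.36 for Serping1 and -0.59 to -0.24 for Cd59a in SCG+PSC, and 0.78 to 1.88 for C3, 0.30 to 0.65 for Serping1 and 0.094 to 0.71 for Cd55 in SCG+MEF. Between the cocultures they were -1.52 to -0.42 for C3, 0.11 to 0.83 for C4b, -0.64 to -0.33 for C1s1, -0.72 to -0.064 for Cd55 and -0.51 to -0.035 for Cd59a. Other alternatives kept the direction of every member. No count model could use all 6 mPSC1 libraries, because reads of PSC+SCG replicate 1 were not recovered, and Cfb was too low in either table for its difference to be measured.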
